A study of Mus musculus with 6 samples.

Results

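Gamma-delta intraepithelial lymphocytes are T cells whose receptor is built from a gamma and a delta chain and that sit between the cells of the gut lining. They were picked out here in single-cell RNA data from mouse jejunal epithelium by the transcript of the delta constant region, Trdc. A barcode was taken as a member when it held at least 750 genes and at most 20% mitochondrial UMIs (unique molecular identifiers, each standing for 1 captured transcript), carried at least 5 UMIs and at least 0.15% of its UMIs in the sum of Cd3e, Cd3g, Cd7, Ptprc, Ccl5 and Gzma, held at least 1 Trdc UMI, and held no UMI of Cd8b1 or Cd4. This left 605 members of 26696 barcodes past the first 2 filters (2.27%, exact binomial 95% interval 2.09 to 2.45%) and of 59457 barcodes called as cells. The sum of the 6 T cell and leukocyte genes is called the gate below, and 1692 barcodes passed it.

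The mice were wild-type C57BL/6J males of about 30 weeks, kept for 16 weeks on a low-fat diet (LFD) or a high-fat diet (HFD) and studied 5 weeks after a sham operation or a vertical sleeve gastrectomy (VSG), which removes most of the stomach. The 3 groups were LFD sham, HFD sham and HFD VSG, and each gave 1 crypt-labelled and 1 villus-labelled library prepared with 10x Genomics 3′ chemistry. Cells were pooled from 3 mice for LFD sham, 3 for HFD sham and 2 for HFD VSG, and both libraries of a group came from the same mice. With 1 library per diet, operation and fraction, no value below has a replicate between conditions, so those comparisons carry counting intervals only and no p-value. The members of 1 library are cells of 1 pool and not replicates.

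As background, gamma-delta cells of the mouse small intestine are a large part of the lymphocytes of the epithelium. Many carry a CD8 alpha homodimer in place of the CD8 alpha-beta coreceptor, sense epithelial butyrophilin-like proteins through their gamma chain, enter the epithelium with the help of the chemokine receptor CCR9 and are held there by the integrin CD103 (Itgae). They hold cytotoxic granules ready, and they carry activating receptors that signal through the adaptor chains encoded by Fcer1g and Tyrobp.

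The gamma chain of these cells ends in 1 of several constant regions, and UMIs of 3 constant genes dominated in the members, while Tcrg-C3 had 2 UMIs. The start of the first constant exon of each is shown because their likeness may bear on how well the counts of these genes can be told apart. All 3 lie in the T cell receptor gamma locus, Tcrg-C1 at chr13:19214103-19214222 on the plus strand, Tcrg-C2 at chr13:19307432-19307551 on the minus strand and Tcrg-C4 at chr13:19344558-19344677 on the plus strand (GRCm38, GENCODE transcripts). The first 120 bases of the 330-base exon are given 5′ to 3′, with capitals marking bases that differ from Tcrg-C1.
Tcrg-C1: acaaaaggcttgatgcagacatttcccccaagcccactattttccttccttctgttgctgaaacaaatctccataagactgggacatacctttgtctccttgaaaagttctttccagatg
Tcrg-C2: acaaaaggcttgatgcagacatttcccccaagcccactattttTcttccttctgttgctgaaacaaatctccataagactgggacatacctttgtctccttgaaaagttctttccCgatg
Tcrg-C4: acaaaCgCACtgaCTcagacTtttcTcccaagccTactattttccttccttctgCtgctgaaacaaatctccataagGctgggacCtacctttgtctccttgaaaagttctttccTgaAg
Over the whole exon Tcrg-C2 differed from Tcrg-C1 at 9 positions (97.3% identity) and Tcrg-C4 at 59 (82.1% identity). The libraries were made with 3′ chemistry, and the 3′ ends of the transcripts were not compared. Whether the counts of Tcrg-C1 and Tcrg-C2 are mixed was therefore not tested, and they are taken as uncertain. The other receptor gene that defines the members, Trdc, lies at chr14:54142851-54148868 on the plus strand, and Trac, the alpha constant gene of alpha-beta T cells, lies downstream of it on the same strand at chr14:54220521-54224206.

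Before the results, the libraries were checked against their labels. In cells outside the gate, the summed level of 7 enterocyte markers was higher in the crypt-labelled libraries (67837 to 74606 CPM, the UMIs of a gene or list per 1000000 UMIs of the class) than in the villus-labelled ones (28709 to 49007 CPM), and 4 Paneth cell markers were lower (9154 to 10309 against 13319 to 68873 CPM). Mki67, a gene of dividing cells, stood at 34.8 to 41.0 CPM in the crypt-labelled and 96.6 to 214 CPM in the villus-labelled libraries. Marker content and label thus went against each other, and the libraries are named by their labels only. Sequencing depth ranged from 60522766 to 155522445 UMIs per library. No member barcode was shared between libraries, while 428 called barcodes were shared over all pairs.

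Members were found in all 6 libraries but very unevenly. There were 34 in the LFD sham crypt-labelled library, 36 in the HFD sham crypt-labelled, 43 in the HFD VSG crypt-labelled, 195 in the LFD sham villus-labelled, 3 in the HFD sham villus-labelled and 294 in the HFD VSG villus-labelled library. As shares of the barcodes past the filters these were 0.738% (0.511 to 1.03%), 1.10% (0.768 to 1.51%), 0.822% (0.595 to 1.11%), 4.28% (3.71 to 4.91%), 0.0695% (0.0143 to 0.203%) and 6.26% (5.58 to 6.99%) in the same order. The HFD sham villus-labelled library held only 5 gated cells of any kind, so its 3 members get no level, share or ratio of their own below and enter only counts over all 605 members.

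**Figure D1:**
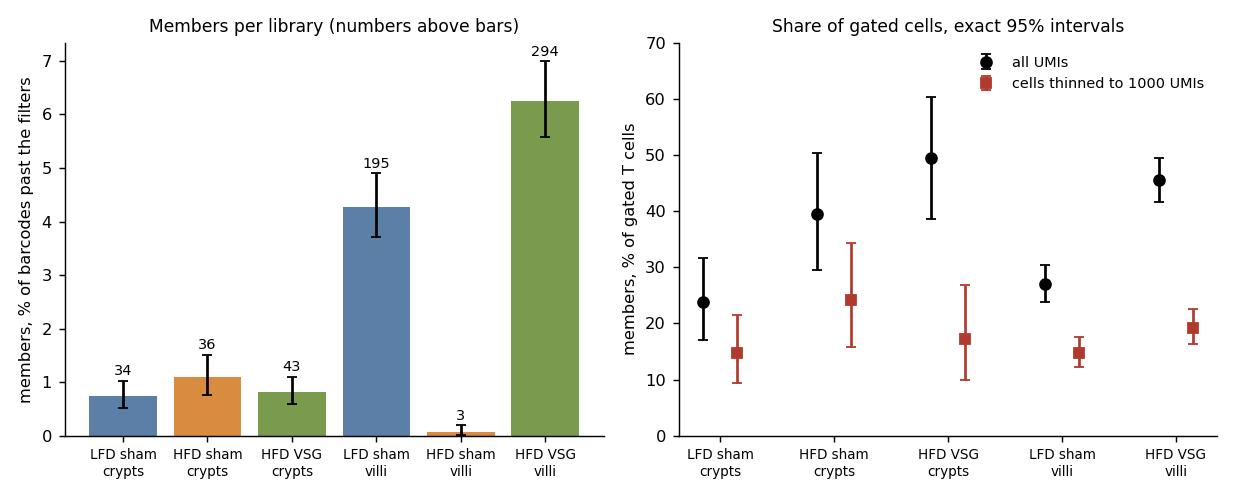
Members as a percentage of barcodes past the filters (left; numbers over the bars are members, error bars exact binomial 95% intervals) and as a percentage of gated cells with all UMIs and after thinning each cell to 1000 UMIs (right), by library. The villus-labelled libraries of LFD sham and HFD VSG held the highest shares, 4.28% and 6.26%, and thinning brought the shares of gated cells to between 14.7% and 24.2%.

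Among gated cells, members made up 23.8% (17.1 to 31.6%) in the LFD sham and 39.6% (29.5 to 50.4%) in the HFD sham crypt-labelled library, and 49.4% (38.5 to 60.4%) in that of HFD VSG. In the villus-labelled libraries the share was 27.0% (23.8 to 30.4%) for LFD sham and 45.6% (41.7 to 49.5%) for HFD VSG. LFD sham was lowest in both fractions, and its interval overlapped that of HFD sham in the crypt-labelled libraries and that of HFD VSG in neither fraction. A deeper cell has more chances to show a Trdc UMI, and the median UMIs per member ranged from 3195 in the LFD sham to 5685.5 in the HFD VSG villus-labelled library. When every gated cell was thinned to 1000 UMIs (none was shallower), the shares became 14.7%, 24.2% and 17.2% in the crypt-labelled and 14.7% and 19.2% in the villus-labelled libraries. LFD sham stayed lowest in both fractions, but its interval then overlapped those of the HFD groups in both, and HFD VSG, above HFD sham with all UMIs, was below it in the crypt-labelled libraries.

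The same comparison can be made without counting cells, from the summed UMIs of members and gated cells without Trdc. The 7 gated cells with Trdc and Cd8b1 or Cd4 were not in these sums. Trdc stood at 163 CPM in the LFD sham, 322 in the HFD sham and 286 in the HFD VSG crypt-labelled library, and at 189 CPM in the LFD sham and 274 in the HFD VSG villus-labelled library. Trac differed the other way between LFD sham and the HFD libraries, at 402, 190 and 124 CPM in the crypt-labelled and 343 and 193 CPM in the villus-labelled libraries. Between the crypt-labelled HFD libraries, both genes were lower in HFD VSG than in HFD sham. For both genes the 95% counting interval of LFD sham overlapped none of those of the HFD libraries of the same fraction, leaving aside the HFD sham villus-labelled library with its 5 gated cells. Each group is 1 pool of mice, so a difference between diets, between pools and between preparations cannot be told apart.

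Of the gated cells that carried Trdc, Cd8b1 or Cd4, the lineage transcripts of the rule, members were the great majority. Gated cells with Cd8b1 or Cd4 and without Trdc numbered 11 in the LFD sham, 0 in the HFD sham and 2 in the HFD VSG crypt-labelled library, and 27, 1 and 21 in the villus-labelled libraries of LFD sham, HFD sham and HFD VSG. Members were 75.6% (60.5 to 87.1%) of members and these cells together in the LFD sham crypt-labelled library, 36 of 36 in the HFD sham and 95.6% (84.9 to 99.5%) in the HFD VSG crypt-labelled library. In the villus-labelled libraries they were 87.8% (82.8 to 91.8%) for LFD sham and 93.3% (90.0 to 95.8%) for HFD VSG. A further 7 gated cells held Trdc together with Cd8b1 or Cd4, and 1018 held none of the 3. These shares cover only cells in which any of the 3 was captured and do not measure gamma-delta against alpha-beta cells. With gated cells thinned to 1000 UMIs, cells with Trac outnumbered members in LFD sham, 44 against 21 (crypt-labelled) and 230 against 106 (villus-labelled). They were 126 against 124 in HFD VSG villus-labelled. In the crypt-labelled HFD libraries they were fewer, 15 against 22 (sham) and 11 against 15 (VSG). Cells with Trac can include members.

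The members lay well inside the gate but not far above the Trdc threshold. Their median gate sum ranged from 67.0 to 114.5 UMIs in the 5 larger libraries, and no member had exactly 5 gate UMIs. Only 18 members fell under 0.3% of UMIs in the gate, and 16 cells with Trdc failed only because the gate was under 0.15% of their UMIs. For Trdc itself, 155 of the 605 members had exactly 1 UMI, and the highest member had 31.

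The label was checked against 5 markers, Trdc, Cd3g, Cd7, Xcl1 and Cd160. Summed over the 5, members held 3576 to 5557 CPM per library and cells outside the gate 0.941 to 6.13 CPM. Gated cells without Trdc held 2361 to 4202 CPM, a range that overlapped that of the members, so the sum does not tell members from other gated cells. Because Trdc, Cd3g and Cd7 belong to the rule, their levels and the sum are descriptions. The gap to cells outside the gate is partly set by the rule. Xcl1, a chemokine, and Cd160, a receptor of the immunoglobulin family, did not belong to it: Xcl1 was seen in 20.6 to 73.1% of members and in 0.0224 to 1.55% of cells outside the gate, and Cd160 in 50 to 79.9% against 0.425 to 2.17%. Cells outside the gate were deeper, with median UMIs of 9738 to 32564 against 3195 to 5685.5 in members. Neither Xcl1 nor Cd160 was among the genes called against gated cells without Trdc below.

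Other cell types were also looked for in the members. Lyz2 and Csf1r (myeloid cells) and Il1rl1 and Il22 (innate lymphoid cells) had 0 UMIs in all 605 members, which allows up to 3 UMIs each over the members. The other markers of these lists were seen: the 5 myeloid markers summed to 28.2 to 63.2 CPM in members and 0.58 to 1.68 CPM in cells outside the gate, the 4 innate lymphoid markers to 24.3 to 46.8 against 8.76 to 27.7 CPM, and the 3 mast cell markers to 30.4 to 85.6 against 3.28 to 24.1 CPM. The 5 B and plasma cell markers summed to 48.6 to 194 CPM in members and 0.442 to 143 CPM in cells outside the gate. The part of such cells was not tested. Epithelial RNA was present: the 7 enterocyte markers summed to 6263 to 33920 CPM in members, against 28709 to 74606 CPM in cells outside the gate of the same libraries. If Apoa1, Apoa4, Fabp1 and Fabp2 in members came from free RNA alone, their level relative to droplets under 100 UMIs would make free RNA a fraction of 0.254 to 0.601 of member UMIs. A doublet score marked 71 members. The 49 members over 10000 UMIs held 13.0 to 39.0% of the member UMIs of a library, and 1 of them, with 69009 UMIs and marked as a doublet, held 80.6% of the Defa24 UMIs (a Paneth cell defensin) of the LFD sham villus-labelled members. The part of these cells in the results was tested only by leaving them out. Without members over 10000 UMIs the enterocyte sum was 3118 to 22864 CPM. Some other values that moved with them are named where they occur or in the closing section, but not all.

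Gamma chain transcripts were nearly universal in the members. A UMI of Tcrg-C1, Tcrg-C2 or Tcrg-C4 was present in 577 of 605 members (95.4%), from 88.4 to 97.2% in the 5 larger libraries. It was also present in 65.1 to 81.7% of gated cells without Trdc. Of 3981 gamma constant UMIs, Tcrg-C1 took 2031 (51.0%), Tcrg-C4 1022 (25.7%) and Tcrg-C2 928 (23.3%), with the reservation for Tcrg-C1 and Tcrg-C2 given with their sequences. The UMI share of Tcrg-C1 was 50% (41.6 to 58.4%) in the LFD sham, 61.5% (54.4 to 68.2%) in the HFD sham and 58.0% (51.4 to 64.3%) in the HFD VSG crypt-labelled library, and 47.5% (44.0 to 51.1%) and 50.7% (48.8 to 52.7%) in the villus-labelled libraries of LFD sham and HFD VSG. Many members held more than 1 constant gene: 299 of the 413 members with Tcrg-C4 also had Tcrg-C1.

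The variable segments split the members further. The files name them in a pair of symbol styles, Trgv2 beside Tcrg-V1 and the others, and they were matched by symbol only, so the segment that Trgv2 stands for in the other numbering is not given. Trgv2 gave 900 UMIs in 383 members, Tcrg-V1 217 in 156, Tcrg-V7 142 in 106 and Tcrg-V4 56 in 52, while Tcrg-V3, Tcrg-V6 and Tcrg-V5 gave 11, 3 and 1 UMIs. Tcrg-V7 encodes the variable region typical of gut intraepithelial cells and lies upstream of Tcrg-C1, and Tcrg-V1 is joined to Tcrg-C4. Of all 605 members, 444 held Tcrg-C1 and 413 held Tcrg-C4. Against these, the constant genes leaned toward the arrangements without following them strictly. Of 85 members with Tcrg-V7 and no Tcrg-V1, 78 held Tcrg-C1 and 51 held Tcrg-C4. Of 135 with Tcrg-V1 and no Tcrg-V7, 87 held Tcrg-C1 and 115 held Tcrg-C4. Both segments were seen in 21 members. Delta variable segments were rarely captured by this 3′ assay, with 115 UMIs in 98 members, of which Trdv2-2 gave 36 and Trdv5, which lies beside Trdc on the opposite strand, gave 22.

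**Figure D2:**
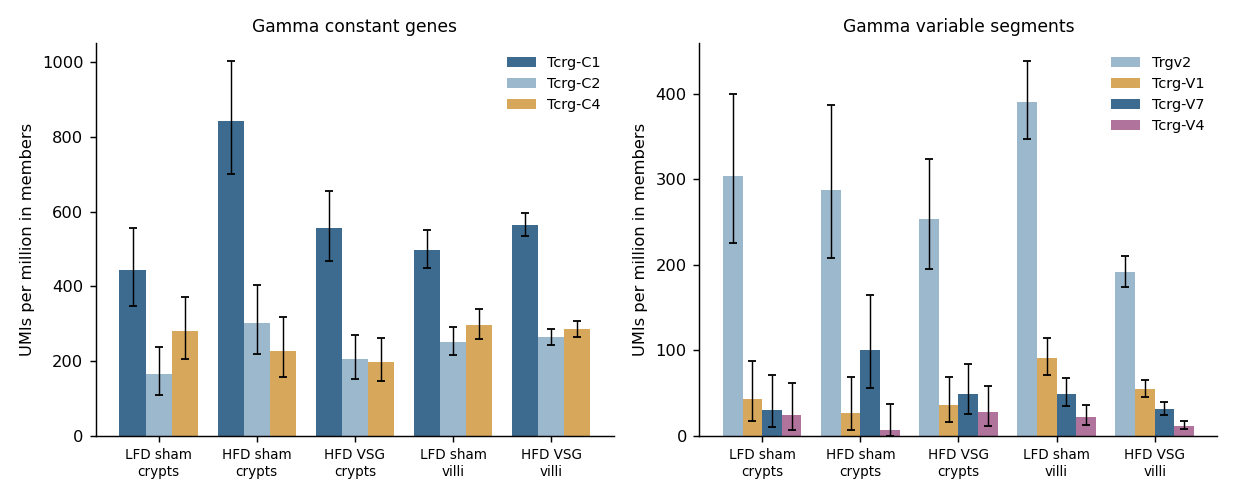
Level of the gamma constant genes and gamma variable segments in members (CPM, with Poisson 95% intervals) in the 5 libraries with at least 20 members. Tcrg-C1 led in all 5 libraries, from 443 to 842 CPM, and Tcrg-V7 ran from 30.4 CPM in the LFD sham to 100 CPM in the HFD sham crypt-labelled library.

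Trac transcripts were also found in members. A Trac UMI was present in 30.2 to 54.1% of them, at 72.4 to 188 CPM, against 182 to 505 CPM in gated cells without Trdc and 0.177 to 0.701 CPM in cells outside the gate. The beta constant genes Trbc1 and Trbc2 were at 225 to 401 and 304 to 641 CPM in members and at 259 to 462 and 427 to 670 CPM in gated cells without Trdc. Only 314 members remained when those with a Trac UMI were left out.

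The members expressed a compact set of T cell, cytotoxic and residency genes in every library. Among coreceptor and adaptor genes, Cd8a was at 563 to 748 CPM, Fcer1g at 890 to 1676 CPM and Hcst at 154 to 397 CPM, against at most 3.90 CPM for any of the 3 in cells outside the gate. Of the granule genes, Gzmb, encoding granzyme B, was at 1219 to 1687 CPM, Nkg7 at 613 to 1269 CPM, and Prf1, encoding perforin, at 24.3 to 81.6 CPM. Gzmm had no UMI in any member. Among residency genes, Itgae was at 447 to 729 CPM and Itga1, encoding the collagen-binding integrin CD49a, at 382 to 574 CPM, while the genes of recirculating cells Klf2, S1pr1 and Ccr7 stayed at or under 7.90, 5.27 and 2.63 CPM. Itgae was seen in 85.3 to 90.1% of members and 0.282 to 2.67% of cells outside the gate.

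Cytokine genes were few. Besides Xcl1, the members carried Ccl4 at 86.8 to 496 CPM, Fgl2, encoding fibrinogen-like protein 2, at 322 to 614 CPM and Tnfsf10, encoding the death ligand TRAIL, at 152 to 213 CPM. Ifng, encoding interferon gamma, was at 0 to 43.4 CPM, and Il17a and Il22 had no UMI in any member. The receptor genes Il2rb and Il2rg, whose products form the receptor through which interleukin 15 signals, were at 231 to 434 and 121 to 180 CPM, and Il7r at 0 to 66.8 CPM. Glp1r, the receptor of the incretin GLP-1, was seen in 44.2 to 47.2% of members and in 0.25 to 0.574% of cells outside the gate, at 140, 207 and 153 CPM in the crypt-labelled libraries of LFD sham, HFD sham and HFD VSG and at 183 and 111 CPM in the villus-labelled libraries of LFD sham and HFD VSG.

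**Figure D3:**
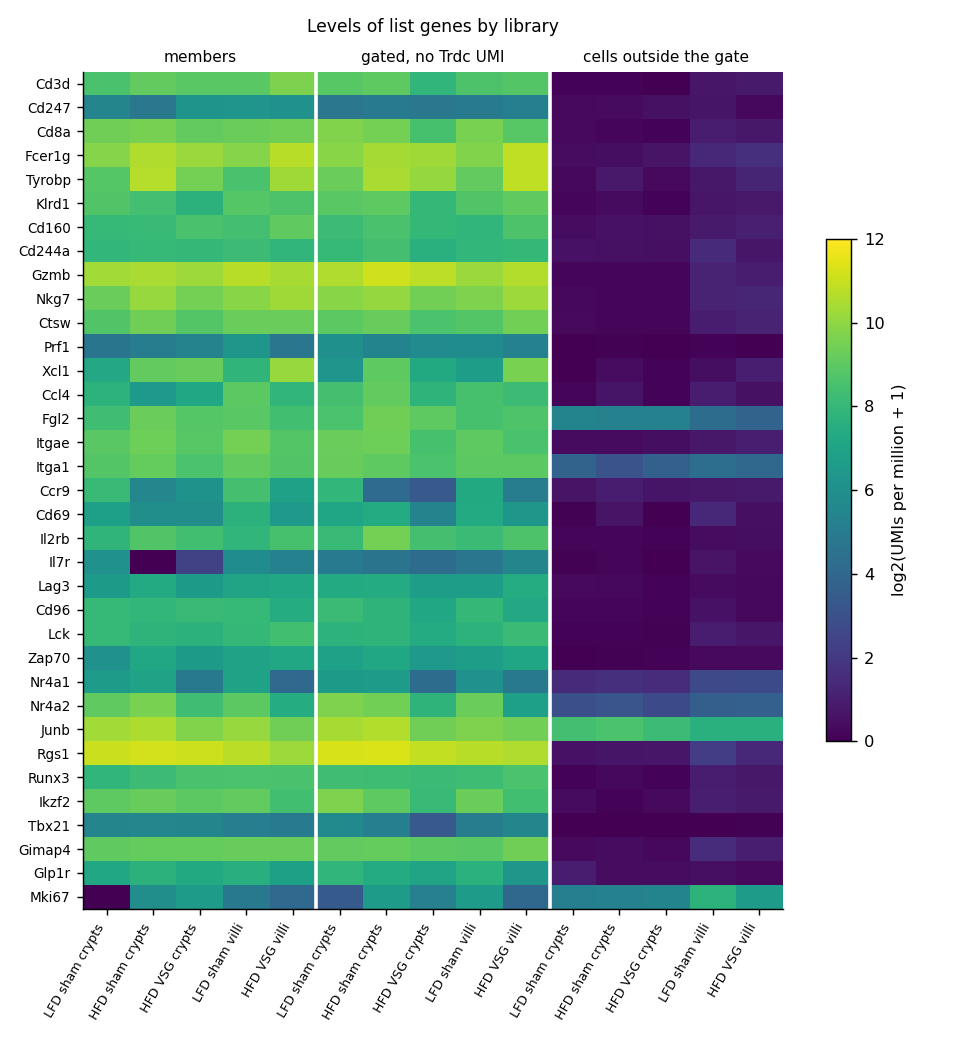
Heat map of log2(CPM + 1) for 35 genes in members, gated cells without Trdc and cells outside the gate, each in 5 libraries. Itgae, for example, stood at 447 to 729 CPM in members and at 1.04 CPM or less in cells outside the gate.

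The planned comparison group, gated cells with Cd8b1 or Cd4 and no Trdc, reached 20 cells in 2 libraries only. A second one, all 1080 gated cells without a Trdc UMI, was therefore added after the data had been seen and could be used in 5 libraries. It is a mixed group: most of its cells held a gamma constant UMI, so it can include gamma-delta cells whose Trdc was not captured. UMIs were summed per library and class, and each class was tested with edgeR's quasi-likelihood test with the library as a block. The crypt- and villus-labelled libraries of a group share their mice. The p-values of the comparison in 5 libraries therefore measure the spread between these libraries, not between mice. The planned comparison had 2 libraries and left 1 residual degree of freedom per gene. Its p-values rest mainly on a spread pooled over genes and do not measure the spread between its 2 libraries.

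Against gated cells without Trdc, the members differed in 7 of 5008 genes tested, apart from genes of the rule. The 4 higher genes are 0.0799% and the 3 lower genes 0.0599% of the genes tested, and 190 genes had an unadjusted p under 0.05. DESeq2 called 3 and 3, and leaving out 1 library gave 12 and 15 without the LFD sham villus-labelled library but 1 and 2 without that of HFD VSG. Without gated cells over 10000 UMIs, 11 were higher and 23 lower. Tcrg-C1 stood at 443, 842, 555, 498 and 565 CPM in members (crypt-labelled LFD sham, HFD sham and HFD VSG, then villus-labelled LFD sham and HFD VSG) and at 132, 152, 77.2, 116 and 100 CPM in the comparison cells. It was higher in all 5 libraries, without overlap, by a log2 fold of 2.32 (SE 0.15, edgeR adjusted p = 4.48e-07). Tcrg-V7 stood at 30.4, 100, 48.3, 48.7 and 31.4 CPM against 7.18, 11.7, 9.08, 11.8 and 2.51 CPM, again higher in all 5, by 2.63 (SE 0.30, edgeR adjusted p = 4.58e-04). Trac went the other way, at 140, 107, 72.4, 188 and 154 CPM against 505, 264, 182, 399 and 231 CPM, lower in all 5 by a log2 fold of -1.08 (SE 0.16, edgeR adjusted p = 0.0106).

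The other 4 genes were a homing receptor, a signalling chain and a pair of NK receptors. Ccr9, the receptor of the gut chemokine CCL25, was at 279, 46.8, 68.4, 353 and 115 CPM in members and at 244, 17.6, 9.08, 155 and 31.8 CPM in the comparison cells. It was higher in members of every library (log2 fold 1.26, SE 0.22, edgeR adjusted p = 0.0366), although the groups overlapped across libraries because both classes were low on HFD. Cd247, encoding the CD3 zeta chain, was at 26.7 to 75.0 CPM against 26.3 to 34.7 CPM and higher in 4 of 5 libraries (log2 fold 1.07, SE 0.19, edgeR adjusted p = 0.0416). Klre1, a lectin-like receptor of NK cells, was at 30.4, 6.68, 0, 48.7 and 5.17 CPM against 223, 46.9, 49.9, 186 and 79.5 CPM and lower in all 5 libraries (log2 fold -2.75, SE 0.30, edgeR adjusted p = 3.70e-04). Klrb1c, encoding NK1.1, was at 0, 33.4, 48.3, 10.5 and 66.7 CPM against 21.6, 123, 132, 8.98 and 179 CPM and lower in 4 of 5 libraries (log2 fold -1.35, SE 0.24, edgeR adjusted p = 0.0414). The NK cell markers Ncr1, Klrb1c and Eomes summed to 0 to 72.3 CPM in members and 12.3 to 250 CPM in the comparison cells. Most of this sum was Klrb1c itself, so it is no separate support. In the comparison cells Klrb1c gave 123 of 141 CPM for HFD sham crypt-labelled. For HFD VSG it gave 132 of 173 CPM (crypt-labelled) and 179 of 250 CPM (villus-labelled). The part of NK cells in the NK receptor result was not tested.

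Of the 18 gene lists, 4 held all 7 of these genes. In the T cell receptor list 2 genes were higher and 1 was lower of 8 tested, with a median log2 fold of 0.36 against 0.00 over all genes tested, and in the gamma variable list 1 of 3 was higher. In the NK receptor list 2 of 5 were lower, with Klrd1, Cd160 and Cd244a at -0.24, 0.25 and 0.04, and in the residency list 1 of 12 was higher. No gene passed in the lists for adaptor chains (0 of 4), cytotoxic granules (0 of 10), chemokines and cytokines (0 of 7), cytokine receptors (0 of 6), inhibitory receptors (0 of 5), T cell receptor signalling (0 of 10), early response genes (0 of 13), transcription factors (0 of 14), Gimap genes (0 of 8), nutrient and hormone sensing (0 of 9), interferon response (0 of 3), proliferation (0 of 7) or epithelial ligands (0 of 5). No delta variable segment had enough counts to be tested. Tcrg-C1 passed in 18 of 18 alternative settings, Klre1 in 16 of 17, Trac in 15 of 18, Tcrg-V7 in 8 of 9, Ccr9 in 12 of 18, Klrb1c in 9 of 14 and Cd247 in 5 of 10. For Trac, 1 of these settings left out the members with a Trac UMI, which fixes the outcome and is no support.

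**Figure D4:**
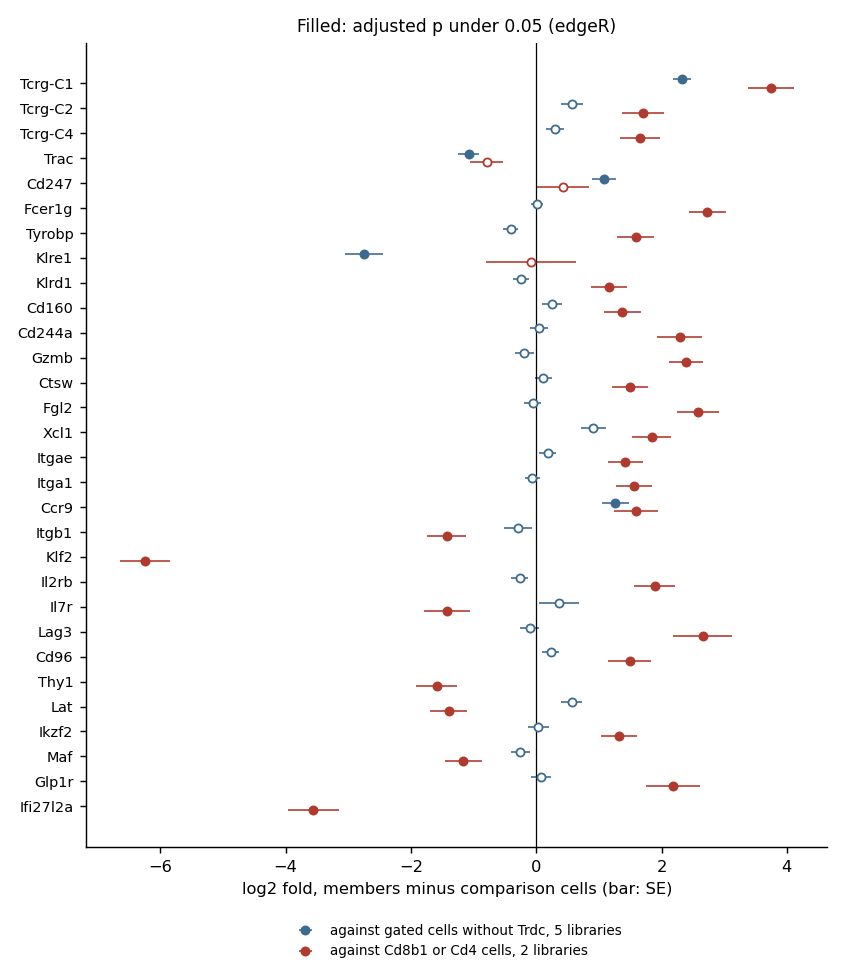
Log2 fold of members over gated cells without Trdc (5 libraries) and over gated cells with Cd8b1 or Cd4 (2 libraries), with the standard error from edgeR, and filled symbols for an adjusted p under 0.05. Tcrg-C1 was higher in both comparisons (2.32 and 3.74), whereas Gzmb and Fcer1g passed only in the second, a difference between comparisons that was not tested.

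Against gated cells with Cd8b1 or Cd4, the members carried more Fcer1g, Gzmb, Fgl2 and Tcrg-C1 and less Klf2, Lef1, Cd2, Cd5, Cd6 and Ifi27l2a. This test had the 2 villus-labelled libraries of LFD sham and HFD VSG, 48 comparison cells and 1 residual degree of freedom, and the comparison cells were chosen by genes the members had to lack. Of 6407 genes tested 131 were higher (2.04%) and 136 lower (2.12%), but DESeq2 called 5 and 15 and the fit without the library block 0 and 11. Within the gene lists 51 genes passed, 33 higher and 18 lower, all with 1 direction in up to 8 alternatives. Of these, 10 also passed in DESeq2: Tcrg-C1, Fcer1g, Fgl2 and Gzmb among the higher, and Klf2, Cd2, Cd5, Cd6, Lef1 and Ifi27l2a among the lower.

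Their values come first. Tcrg-C1 was at 498 and 565 CPM in members of LFD sham and HFD VSG against 34.3 and 41.9 CPM in the comparison cells (log2 fold 3.74, edgeR adjusted p = 2.02e-21). Fcer1g, the adaptor of activating receptors, was at 890 and 1676 against 180 and 191 CPM (log2 fold 2.73, edgeR adjusted p = 2.90e-17). Gzmb was at 1687 and 1373 against 480 and 168 CPM (2.39, edgeR adjusted p = 3.50e-15), and Fgl2 at 483 and 333 against 94.2 and 46.6 CPM (2.58, edgeR adjusted p = 6.84e-12). In both libraries the members were well above the comparison cells. Klf2, a factor that keeps T cells in circulation, was at 7.90 and 2.15 against 240 and 308 CPM (-6.25, edgeR adjusted p = 4.67e-49). Lef1, a factor of naive T cells, was at 2.63 and 4.31 against 146 and 51.3 CPM, and Cd2, an adhesion receptor, at 6.58 and 3.01 against 51.4 and 112 CPM. Ifi27l2a, an interferon-induced gene, was at 9.21 and 14.6 against 146 and 144 CPM (-3.56, edgeR adjusted p = 2.50e-15). Cd5 and Cd6, scavenger-type receptors that dampen T cell receptor signals, had 2 and 24 UMIs in all these members against 28 and 33 UMIs in far fewer comparison cells, which gives Cd5 a pooled log2 ratio of -7.02 (counting interval -10.1 to -5.04).

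Of these 10 genes, Klf2, Ifi27l2a, Cd2, Cd5 and Lef1 passed in every alternative that tested them. Tcrg-C1, Fcer1g, Gzmb, Fgl2 and Cd6 passed in 7 of 8. The remaining list genes passed in at most 6. The receptor list had Tcrg-C1, Tcrg-C4 and Tcrg-C2 higher of 8 tested, and the gamma variable list had Tcrg-V1, Trgv2 and Tcrg-V7 higher of 3. In the adaptor list Tyrobp joined Fcer1g (370 and 1244 against 248 and 219 CPM), and in the NK receptor list 3 of 4 were higher, Cd244a, Cd160 and Klrd1. The granule list had 4 of 11 higher (Gzmb, Ctsw, Cst7 and Srgn) and Gzmk lower, at 36.9 and 10.8 against 85.6 and 97.9 CPM. Of chemokines and cytokines 3 of 8 were higher, with Xcl1 at 228 and 1123 against 146 and 168 CPM. The residency list was split, 5 of 16 higher (Itga1, Itgae, Ccr9, Gpr55 and Gpr18) and 4 lower, among them Klf2, Itgal and Itgb1.

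Receptors and factors were split in the same way. Of cytokine receptors, Il2rb and Il21r were higher and Il7r, the receptor of the survival factor interleukin 7, was lower of 7 tested. Of 9 inhibitory receptors, Lag3, Cd96, Cd200r1 and Cd244a were higher and Cd5 and Cd6 lower. Of 14 T cell receptor signalling genes, the kinase Txk was higher and Cd28, Cd2, Thy1 and Lat were lower. Cd28, the costimulatory receptor, had 0 UMIs in members against 26 in the comparison cells and was at least 80.6-fold lower against a floor of 3 UMIs over the 2 libraries together. Of 19 transcription factors, Ikzf2 and Ikzf3 were higher and Lef1, Maf and Bcl11b lower. Of 11 nutrient and hormone genes only Glp1r passed, at 183 and 111 CPM in members against 77.1 and 4.66 CPM (log2 fold 2.18, edgeR adjusted p = 3.89e-05), on 9 and 1 UMIs in the comparison cells. Of 13 early response genes Rgs1 was higher and Jun lower, of 7 interferon response genes Ifi27l2a and Bst2 were lower, and no Gimap gene (0 of 8), proliferation gene (0 of 7) or epithelial ligand (0 of 3) passed. The median log2 fold of all genes tested was 0.00.

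By size of fold alone, the lowest genes included Cd28, Ly6c2, Cd5, Cmah, Klf2, Gm8369, Gpr183, Gm2682 and Lgals1. Ly6c2, a surface protein of memory T cells, had 1 UMI in members against 27 in the comparison cells, a pooled log2 ratio of -7.97 (counting interval -13.3 to -5.37), and Cmah had 1 against 14, -7.02 (-12.4 to -4.31). These ratios, like that of Cd5, use the counts as they stand, while the bound for Cd28 uses the floor, so their sizes cannot be ranked against it. Gpr183, a receptor for oxysterols that guides lymphocyte migration, was at 5.27 and 0.86 CPM against 146 and 60.6 CPM, and Lgals1, encoding galectin 1, at 23.7 and 4.31 against 77.1 and 410 CPM. Of the lower genes named here, Cd28 and Lgals1 did not pass in DESeq2, and Cmah, Gm2682 and Lgals1 did not pass without the library block. The highest genes were Tspan9, Spp1, Tcrg-V7, Usp46, Igha, Tmem273, Dnm3, Trim24, Tcrg-V1 and Sulf2, and none of these 10 passed in DESeq2, without the block or with both fractions of a group summed. The first 8 had no UMI in the comparison cells and were at least 5.55-fold (Tspan9), 5.16-fold (Spp1), 3.94-fold (Tcrg-V7), 3.19-fold (Usp46 and Igha), 2.87-fold (Dnm3), 2.80-fold (Tmem273) and 2.76-fold (Trim24) higher against the same floor. Igha encodes the heavy chain of IgA and is a gene of plasma cells, and the plasma cell marker Jchain had 5 and 1 UMIs and Igkc 22 and 1 UMIs in the members of LFD sham and HFD VSG. The part of such cells was not tested.

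Between conditions, Xcl1 was higher and Ccr9 lower in HFD than in LFD sham members of both fractions. In the villus-labelled libraries the HFD members compared were of HFD VSG only, so diet and operation cannot be told apart there. The fractions of a group also share their mice. Gated cells without Trdc likewise had LFD sham lowest for Xcl1 and highest for Ccr9 in each fraction. In the crypt-labelled libraries, their order of HFD sham and HFD VSG was the reverse of that in members. Log2 ratios of member CPM were taken where the members of the pair averaged 20 UMIs or more for the gene and its level in the higher library was no less than 2 times that of free RNA. Of 695 genes, 36 lay beyond a log2 ratio of 1 (5.18%) for HFD sham to LFD sham in the crypt-labelled libraries, of 910 genes 28 (3.08%) for HFD VSG to HFD sham, and of 897 genes 45 (5.02%) for HFD VSG to LFD sham. For HFD VSG to LFD sham in the villus-labelled libraries it was 328 of 3376 genes (9.72%). The pairs share libraries, so their ratios are not independent of each other.

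The balance of higher and lower genes depended on the scaling and on the filters. By totals, 28 were higher and 8 lower for HFD sham to LFD sham, 11 and 17 for HFD VSG to HFD sham, 27 and 18 for HFD VSG to LFD sham (crypt-labelled), and 85 and 243 for the villus-labelled pair. Scaled by the median of ratios, these became 15 and 18, 17 and 16, 21 and 24, and 173 and 92. By totals but with at most 10% mitochondrial UMIs they were 9 and 23, 21 and 8, 18 and 22, and 97 and 240. Without the condition on free RNA they were 40 and 50, 79 and 25, 85 and 48, and 797 and 374. The direction of the balance is therefore not read as a result. The median log2 ratio over all genes by totals was 0.18 for HFD sham to LFD sham and -0.31 for the villus-labelled pair, and single ratios are best read against these. The 5 highest and 5 lowest ratios of each pair kept their direction in 10 alternative settings, and the other ratios named below were not run under them.

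Xcl1, the ligand through which lymphocytes draw cross-presenting dendritic cells, was lower in the LFD sham than in the HFD sham and HFD VSG libraries. Its level in members was 152 CPM (98.2 to 224) in the LFD sham, 561 CPM (447 to 695) in the HFD sham and 595 CPM (503 to 699) in the HFD VSG crypt-labelled library, and 228 CPM (195 to 264) in the LFD sham and 1123 CPM (1081 to 1167) in the HFD VSG villus-labelled library. Both LFD libraries lay below all HFD libraries, and the share of members with a UMI ran in the same order, at 20.6, 55.6, 65.1, 26.7 and 73.1%. The log2 ratio was 1.89 (1.23 to 2.59) for HFD sham to LFD sham, 1.97 (1.35 to 2.65) for HFD VSG to LFD sham in the crypt-labelled and 2.30 (2.08 to 2.53) in the villus-labelled libraries. Over 10 alternatives the ratio for HFD VSG to LFD sham in the crypt-labelled libraries ran from 0.89, with the members holding a Trac UMI left out, to 2.96, with at most 10% mitochondrial UMIs. For HFD VSG to HFD sham it was 0.09 (-0.31 to 0.49). In gated cells without Trdc the levels were 76.6, 516 and 154 CPM and 104 and 762 CPM, again lowest on LFD. Between 9.83 and 28.0% of the Xcl1 UMIs of a library's members came from 1 cell. The NK cell markers Ncr1, Klrb1c and Eomes, mostly Klrb1c, were also lower in the LFD members. They summed to 0, 33.4 and 48.3 CPM in the crypt-labelled and to 10.5 and 72.3 CPM in the villus-labelled libraries, in the same order. Their part in the Xcl1 values was not tested.

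Tyrobp, the adaptor DAP12, followed part of the same pattern. It was at 455 CPM (358 to 571) in LFD sham, 1623 CPM (1425 to 1840) in HFD sham and 712 CPM (611 to 825) in HFD VSG for the crypt-labelled libraries, and at 370 CPM (328 to 416) and 1244 CPM (1199 to 1291) for LFD sham and HFD VSG in the villus-labelled ones. The log2 ratio was 1.83 (1.45 to 2.23) for HFD sham to LFD sham and -1.19 (-1.48 to -0.90) for HFD VSG to HFD sham in the crypt-labelled libraries, and 1.75 (1.57 to 1.93) for HFD VSG to LFD sham in the villus-labelled ones. Gated cells without Trdc held 635, 1418 and 1112 CPM and 558 and 1833 CPM. The NK cell markers given with Xcl1 were likewise lower in the LFD members but did not fall from HFD sham to HFD VSG. Their part in the Tyrobp values was not tested. Klrb1c was also higher for HFD VSG in the villus-labelled libraries, at 66.7 against 10.5 CPM (2.66, 1.65 to 3.90), and stood at 179 against 8.98 CPM in gated cells without Trdc.

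Ccr9 went the opposite way. Members held 279 CPM (205 to 373) in the LFD sham, 46.8 CPM (18.8 to 96.3) in the HFD sham and 68.4 CPM (39.8 to 109) in the HFD VSG crypt-labelled library, and 353 CPM (312 to 398) and 115 CPM (101 to 129) in the villus-labelled libraries of LFD sham and HFD VSG. Both LFD libraries lay above all HFD libraries, and a Ccr9 UMI was present in 64.7, 13.9, 30.2, 63.6 and 41.8% of members. The log2 ratio was -2.58 (-3.97 to -1.42) for HFD sham to LFD sham, -2.03 (-2.93 to -1.20) for HFD VSG to LFD sham in the crypt-labelled and -1.62 (-1.87 to -1.37) in the villus-labelled libraries. Its ligand gene, Ccl25, was at 671 to 855 CPM in the cells outside the gate of these 5 libraries.

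**Figure D5:**
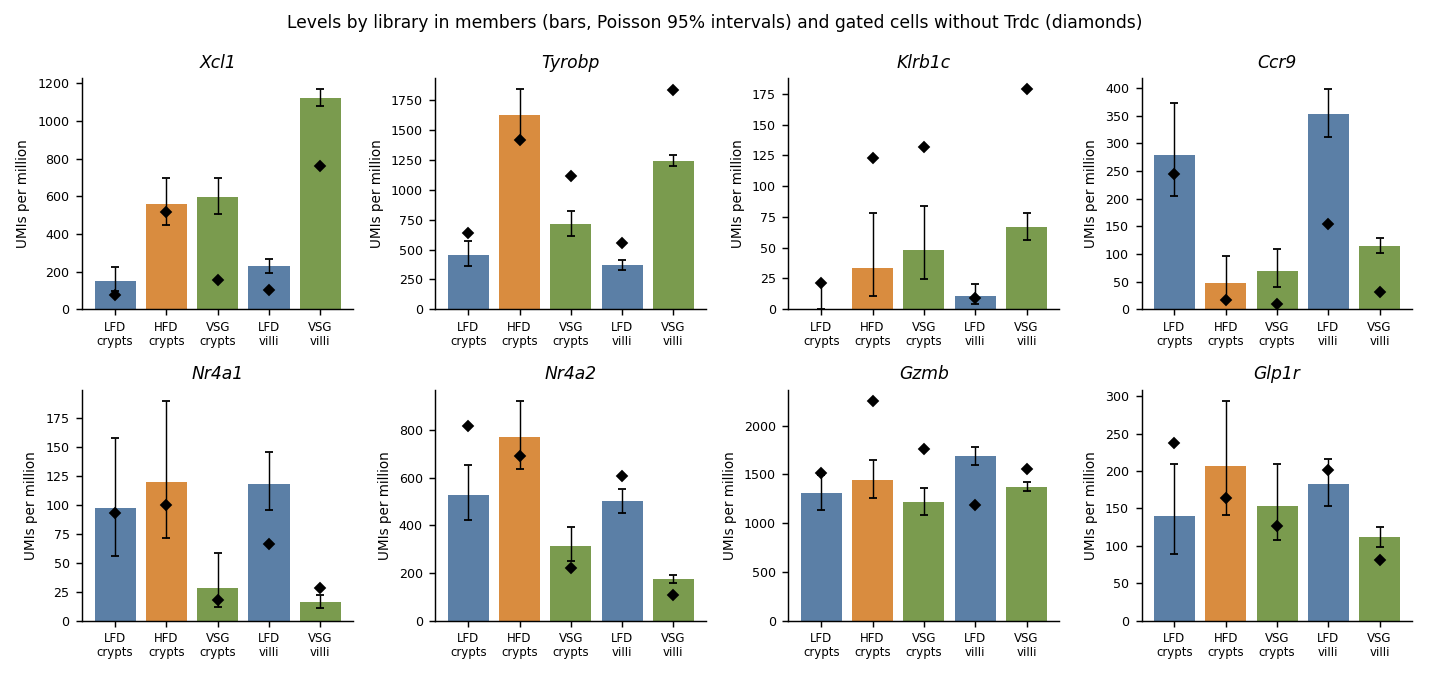
Level of 8 genes in members (bars, CPM with Poisson 95% intervals) and in gated cells without Trdc (diamonds) by library. Xcl1 ran from 152 and 228 CPM in the LFD libraries to 561, 595 and 1123 CPM in the HFD libraries, and Ccr9 from 279 and 353 CPM down to 46.8, 68.4 and 115 CPM.

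Nr4a1 and Nr4a2 are early response genes that switch on soon after a receptor signal or handling. Nr4a2 was lowest in HFD VSG members of both fractions, and Nr4a1 was lower in HFD VSG members of the villus-labelled pair. Nr4a1 was at 97.1, 120 and 28.2 CPM in the crypt-labelled libraries of LFD sham, HFD sham and HFD VSG and at 118 and 15.9 CPM in the villus-labelled libraries of LFD sham and HFD VSG. Nr4a2 was at 528, 768 and 314 CPM and at 500 and 174 CPM. Both HFD VSG libraries thus lay below the other 3 for Nr4a2. The levels of Nr4a1 were also lowest there, but it had too few UMIs in the crypt-labelled members for a ratio. The Nr4a1 difference is therefore read in the villus-labelled pair only. The log2 ratio of Nr4a2 was -1.29 (-1.73 to -0.86) for HFD VSG to HFD sham, and for the villus-labelled pair it was -1.53 (-1.73 to -1.32), beside -2.89 (-3.49 to -2.33) for Nr4a1 and -1.56 (-1.73 to -1.39) for Fos. In that pair 4 of 8 counted early response genes lay beyond a log2 ratio of 1 on the lower side and none on the higher, where 7.20% of all genes lay lower and 2.52% higher, with a median of -1.14 against -0.31 over all genes. In the crypt-labelled libraries it was 1 of 7 for HFD VSG to HFD sham, 0 of 5 for HFD VSG to LFD sham and 0 of 7 for HFD sham to LFD sham. Gated cells without Trdc held 814, 692 and 222 CPM and 606 and 108 CPM of Nr4a2.

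Of the genes at the ends of each pair, 4 encode heat-shock proteins, Hsph1, Hspd1, Hspa1a and Hspa1b, all higher in LFD sham than in the library compared with it. No list of heat-shock genes was tested. Hsph1, a chaperone of the HSP110 family, was at 243 CPM in LFD sham members and at 60.1 and 60.3 CPM in HFD sham and HFD VSG members of the crypt-labelled libraries, and Hspd1, the mitochondrial chaperonin, at 225 against 93.5 CPM in HFD sham. In the villus-labelled libraries Hspa1a, the inducible HSP70, was at 154 CPM in LFD sham and 5.60 CPM in HFD VSG members (log2 ratio -4.78, -5.73 to -3.95), and Hspa1b at 171 and 7.75 CPM. Hsph1, Hspa1a and Hspa1b also differed in cells outside the gate, while Hspd1 stood at 143 CPM (LFD sham) and 146 CPM (HFD sham) there in the crypt-labelled libraries. In gated cells without Trdc of these libraries, Hspd1 was at 218 CPM (LFD sham) and 135 CPM (HFD sham), and Hsph1 at 220 and 82.1 CPM. In their free RNA, Hspd1 was at 63.1 and 43.6 CPM and Hsph1 at 19.5 and 4.91 CPM. Hsph1 was at 33.8 against 13.2 CPM in cells outside the gate of the LFD sham and HFD sham crypt-labelled libraries. In the villus-labelled pair Hspa1a was at 115 against 4.60 CPM in gated cells without Trdc, at 41.3 against 5.08 CPM in cells outside the gate and at 46.1 against 4.81 CPM in free RNA. Hspa1b was at 159 against 3.77, 41.9 against 5.56 and 38.9 against 6.34 CPM in the same order. What these differences outside the members add to the members' values was not tested.

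Of effector genes in the villus-labelled pair, Ifng, Prf1 and Ccl4 were lower in HFD VSG, and Xcl1, as given above, was higher. Ifng was at 43.4 CPM in LFD sham and 9.04 CPM in HFD VSG members (log2 ratio -2.26, -3.13 to -1.43), Prf1 at 81.6 and 25.4 CPM (-1.68, -2.22 to -1.15), and Ccl4 at 496 and 236 CPM (-1.08, -1.27 to -0.88). Gzmb was at 1687 and 1373 CPM in the same libraries and at 1305, 1443 and 1219 CPM in the crypt-labelled ones. Of 10 granule genes 2 lay beyond a log2 ratio of 1, both lower, and of 8 chemokine and cytokine genes 3 lay below and 1, Xcl1, above, beside 7.20% of all genes below and 2.52% above by totals, a balance that turned under the median-of-ratios scaling. Ifng had 2, 2 and 0 UMIs in the crypt-labelled members, too few to compare. Prf1 also had too few UMIs there for a ratio. Ccl4 had a crypt-labelled log2 ratio of -0.55 (-1.27 to 0.16) for HFD VSG to LFD sham. For HFD VSG to HFD sham that of Ccl4 was 0.74 (-0.21 to 1.78). Klre1, lower in members than in other gated cells, was also at 48.7 against 5.17 CPM between the villus-labelled libraries of LFD sham and HFD VSG (-3.24, -4.31 to -2.27).

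The receptor list held few genes beyond the limit, as did all genes, of which 3.08 to 9.72% lay beyond it. Of the list, none lay beyond a log2 ratio of 1 in the villus-labelled pair (0 of 8, from -0.29 to 0.70), in HFD VSG to HFD sham (0 of 6) or in HFD VSG to LFD sham (0 of 7) of the crypt-labelled libraries, and Trbc2 alone did in HFD sham to LFD sham (1.08, 0.57 to 1.60). Trgv2 was lower in HFD VSG than LFD sham in the villus-labelled pair (192 against 391 CPM, -1.03, -1.24 to -0.81). Gimap genes, which encode small GTPases of lymphocytes, had 0 of 6, 0 of 6, 0 of 7 and 1 of 8 beyond the limit in the 4 pairs. With so few members per list, these counts are near the shares over all genes.

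The other genes at the ends of each pair had weaker footing. For HFD sham to LFD sham these were Ccl4 and Ash1l on the lower side and Rcsd1, Klrb1a and Dusp5 on the higher, with log2 ratios from -1.29 to -1.16 and from 1.63 to 1.81. For HFD VSG to HFD sham they were Golim4, D16Ertd472e, Tnfaip3, Vps37b and Plek, from -1.49 to -1.29, against Kcnq1ot1, Sars and Ash1l, from 1.21 to 1.85. For HFD VSG to LFD sham in the crypt-labelled libraries they were Tnfaip3, Bcl11b and Slfn2, from -2.04 to -1.59, against Cdk6 and Eif1b at 2.48 and 1.95. For Bcl11b, 38.5% of the HFD VSG UMIs came from 1 cell. Its log2 ratio moved from -1.75 to -2.35 without cells over 10000 UMIs. Krt18 and Cd24a, epithelial genes, led the higher side of both HFD VSG pairs, but 92.2% and 97.9% of their HFD VSG UMIs came from 1 cell. In the villus-labelled pair Mmp7, Defa21 and Defa22, Paneth cell genes, were among the lowest, with 83.4 to 92.3% of their LFD sham UMIs in 1 cell. Without cells over 10000 UMIs their log2 ratios moved from -6.55, -4.67 and -5.11 to -3.33, -1.31 and -1.20. On the higher side stood Capg (43.1 against 1.32 CPM), C1qtnf6, Tmprss6 and Ctla2a, each with at most 3 UMIs in LFD sham. The counting interval of the log2 ratio ran from 2.52 to 10.3 for Capg and from 1.46 to 9.34 for C1qtnf6, each with 1 UMI in LFD sham. For Tmprss6, with 3, the ratio was 2.39 (0.75 to 4.72). Ctla2a, with 0 UMIs in LFD sham, was at least 5.12-fold higher against the floor of 3 UMIs in that library. Over 10 alternatives the log2 ratio went as low as 1.66 for Capg, 0.87 for C1qtnf6, 1.42 for Tmprss6 and 0.55 for Ctla2a.

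The epithelial side of the gamma-delta interaction was read in cells outside the gate, as a description. Btnl1 and Btnl6 encode the butyrophilin-like pair that intestinal cells with a Vgamma7 receptor recognise. Btnl1 was at 197, 194 and 202 CPM in the crypt-labelled libraries of LFD sham, HFD sham and HFD VSG and at 104, 143 and 71.5 CPM in the villus-labelled ones, and Btnl6 at 102, 94.5 and 74.0 CPM and at 55.1, 67.2 and 18.7 CPM. Both were higher in every crypt-labelled than in any villus-labelled library, as the enterocyte markers were. Il15, encoding the cytokine that keeps these lymphocytes alive, was at 27.3, 19.7 and 17.6 CPM in the crypt-labelled and 8.70, 10.8 and 5.25 CPM in the villus-labelled libraries. Cdh1, encoding the E-cadherin that binds the CD103 integrin, was at 159 to 248 CPM throughout.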

How the data were processed

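The authors deposited filtered and raw matrices of UMI counts per gene and barcode for 6 libraries, made with Cell Ranger 6.0.0 on mm10 per the labels, not normalized and with no cell annotation. The paper's methods name removal of free RNA and doublets, which the deposited counts used here do not contain. By its own method the paper estimated more free RNA in both HFD sham libraries than in the others. The fraction given here was instead higher for LFD sham (0.601) than for HFD sham (0.405) in the crypt-labelled libraries. The reason for this difference was not tested. Members, gene lists (18) and comparisons were chosen with earlier results of these data known. Levels are UMIs summed over the cells of a class and library per 1000000 UMIs of that sum (CPM). Classes were compared with edgeR 4.0.16 (TMM, quasi-likelihood F-test, library block, Benjamini-Hochberg over all genes tested, adjusted p under 0.05) in libraries with at least 20 cells of each class. Genes of the rule and mitochondrial genes stayed in the fits and out of the results. On simulated counts for the comparison with gated cells without Trdc (4624 genes), 68.5% of 2-fold and 100% of 4-fold changes were called. These counts were drawn from 1 gene profile shared by all libraries, with a set spread that was not fitted to the data. The percentages therefore do not measure the power on the real counts. Conditions have 1 library each and were compared as log2 ratios with exact conditional Poisson 95% intervals, sums under 3 UMIs being set to 3 and a log2 ratio of 1 taken as the limit. Intervals of shares are exact binomial (Clopper-Pearson). All intervals cover counting error only. Free RNA was read from droplets under 100 UMIs and was not removed in the main values. Doublets were scored by simulation (30 components, 20 neighbours) and kept in the main values. Named genes were list members, the 10 highest and 10 lowest folds of the planned test and the 5 highest and 5 lowest ratios per pair; genes of the added test are all that passed. Alternatives changed the filters, the rule, doublets, depth, scaling and libraries, with DESeq2 1.42.0 as a second test. 1 gene of the lists is not reported here.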

Additional observations from a re-analysis of the deposited data

How the results depend on the processing

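The counts and shares moved as follows, and the cause was not tested. Leaving out members with a Trac UMI left 314 members, and their share among cells with a lineage transcript became 78.7% (LFD sham) and 86.5% (HFD VSG) in the villus-labelled libraries. The share of gated cells, in the order LFD sham, HFD sham and HFD VSG crypt-labelled, then LFD sham and HFD VSG villus-labelled, was 16.1, 26.4, 34.5, 13.9 and 20.9% without Trac-positive members and 14.7, 24.2, 17.2, 14.7 and 19.2% after thinning. With at least 2 Trdc UMIs it was 16.8, 25.3, 39.1, 18.7 and 36.0%, and with 1500 genes 53.2% (HFD sham crypt-labelled) and 30.5% (LFD sham villus-labelled). Against cells with Cd8b1 or Cd4, genes higher and lower were 55 and 60 (10% mitochondrial UMIs), 72 and 70 (Trac), 14 and 13 (thinned), 5 and 15 (DESeq2), 0 and 11 (no library block; 300 at an unadjusted p under 0.05) and 12 and 29 (both fractions of a group summed). The filter of 1500 genes, the gate without Gzma and Ccl5, doublet removal, the limit of 10000 UMIs and leaving out a library left 1 library or none in that test and were not run. Against gated cells without Trdc, genes higher were 1 (1500 genes), 11 (cells over 10000 UMIs left out), 32 (genes with at least 1 UMI), 1 (no block), 2 (no HFD VSG library), 10 (fractions summed) and 1 to 12 (leaving out 1 library). Genes lower were 8 (10% mitochondrial), 9 (2 Trdc UMIs), 7 (gate without Gzma and Ccl5), 6 (doublets removed), 10 (Trac), 10 (thinned), 23 (over 10000 UMIs), 67 (at least 1 UMI), 0 (no block; 38 genes at an unadjusted p under 0.05), 31 (summed) and 1 to 15 (leaving out 1 library). The percentage of genes beyond a log2 ratio of 1 was, for HFD sham to LFD sham, 8.87 (2 Trdc UMIs), 2.01 (mean of 50 UMIs) and 7.91 (free RNA subtracted). For HFD VSG to HFD sham it was 5.42 (Trac), 1.57 (mean of 50), 6.31 (no condition on free RNA) and 5.49 (subtracted). For HFD VSG to LFD sham it was 8.87, 2.88, 7.57 and 9.14 under 2 Trdc UMIs, mean of 50, no condition and subtraction in the crypt-labelled libraries and 15.4 without the condition in the villus-labelled ones. No paired analysis was possible between conditions because each has 1 library per fraction, which gives fewer than 2 shared replicate numbers. The tests between cell classes were paired within library, and their counts without that block stand above. With 34 to 43 members per crypt-labelled library, only abundant genes could be compared there.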
